A study of Mus musculus with 6 samples.

Results

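The 9 genes described here build and measure the thin filament of the muscle sarcomere. They are the sarcomeric actins Acta1 and Actc1, the nebulin family members Neb and Nrap, the tropomodulins Tmod1 and Tmod4, the leiomodins Lmod2 and Lmod3, and the muscle cofilin Cfl2. They were picked by gene symbol and role, with no threshold on a measured value, but with earlier results of these data known. Each of the 9 was present among the 27179 genes of each of the authors' deposited tables. All 9 had an adjusted p in both tables.

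RNA was sequenced from C2C12 cells, a mouse myoblast line that stops dividing and fuses into myotubes when serum is lowered, 48 h after induction with horse serum and insulin. The groups were BAF250A knockdown, BRD9 knockdown and scrambled shRNA, each a C2C12 line that stably carries its shRNA construct, the scrambled one being non-targeting, with 2 libraries per group that the submitters call biological duplicates. SWI/SNF enzymes move nucleosomes with the energy of ATP and exist in several forms. BAF250A, encoded by Arid1a, marks the form called BAF, and BRD9 marks the one called ncBAF. The series title asks whether these forms are needed differently as skeletal muscle cells differentiate.

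In a sarcomere, actin monomers polymerise into thin filaments whose barbed ends are anchored in the Z-disc and whose pointed ends face the middle of the sarcomere. Nebulin runs along the filament and stabilises it, tropomodulins cap the pointed end, leiomodins nucleate and lengthen filaments there, and cofilin severs filaments and returns actin to the monomer pool. Differentiating myoblasts switch from cytoplasmic and smooth muscle actins to cardiac and then skeletal alpha-actin, and Actc1 is therefore a normal product of C2C12 myotubes. In bulk RNA, fewer cells of a type and less RNA per cell cannot be told apart.

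The authors' deposited tables give 1 mean normalized count per gene over the 4 libraries of a comparison, a log2 fold change with its standard error (SE), and an adjusted p. A normalized count is a read count divided by the size factor of its library. For each of the 9 genes exactly 1 set of whole reads gave back the mean, fold change and SE of both tables, and these reads give the values per library below. Library 1 of each group is the one with the larger size factor, and which library of a pair was labelled A or B is not known. Size factors were 0.801 and 0.773 for BAF250A knockdown against 1.58 and 1.09 for scrambled shRNA, and 0.841 and 0.782 for BRD9 knockdown against 1.477 and 1.07 for scrambled shRNA in the second table, so the knockdown libraries had the smaller size factors. The same 2 scrambled libraries served both comparisons.

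The targeted transcripts were lower in their own knockdown. Arid1a had 1365 and 1072 normalized counts in BAF250A knockdown, against 6536 and 3250 in scrambled shRNA (log2 fold change −1.95, SE 0.48, adjusted p = 0.000381 in the authors' deposited table). Brd9 had 197 and 403 normalized counts in BRD9 knockdown, against 852 and 1055 in scrambled shRNA (log2 fold change −1.60, SE 0.54, adjusted p = 0.0252 in the authors' deposited table). The tables do not name the numerator, and their sign was read from these genes. The scrambled libraries also differed from each other, but not in the same way for every list. Library 2 held more of the resolved troponin and tropomyosin transcripts in 10 of 12 cases, with a median ratio of library 2 over library 1 of 2.84. For the 9 genes described here it held more in 4 cases, with a median ratio of 0.850. Of the 8 skeletal muscle markers, which include Des, Myog and Myh3, 0 were called higher and 6 lower in BAF250A knockdown, and in BRD9 knockdown 1 (Myod1) was called higher and 1 (Myf5) lower. The normalized counts of the 7 of them with reads per library summed to 25075 and 27918 in BAF250A knockdown and to 266932 and 250683 in BRD9 knockdown. In scrambled shRNA the same sum was 118064.5 and 250022 with the size factors of the BAF250A table, and 125899 and 256012 with those of the BRD9 table. The part that this broader difference in muscle transcripts plays in the results below was not tested.

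With BAF250A knockdown, 6 of the 9 genes fell: Acta1, Actc1, Nrap, Tmod1, Lmod2 and Lmod3. The authors' deposited DESeq2 table calls 17.5% of the 16450 genes it tests lower at an adjusted p below 0.05 and 11.2% higher, and it calls 0 of the 9 genes higher. At an unadjusted p below 0.05 the counts were 7 lower and 0 higher. The median log2 fold change of the 9 genes was −1.43, against −0.18 for all genes tested in the authors' deposited table. With BRD9 knockdown, 3 of the 9 genes rose, Actc1, Neb and Tmod1, where the authors' deposited table calls 5.11% of 17198 genes higher and 9.33% lower. It calls 0 of the 9 lower, and at an unadjusted p below 0.05 the counts were 3 higher and 0 lower. The median log2 fold change was 0.47 for the 9 genes, against −0.15 for all genes tested in the authors' deposited table. The comparisons share their scrambled libraries, so these values are set side by side and are not independent of each other.

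**Figure D1:**
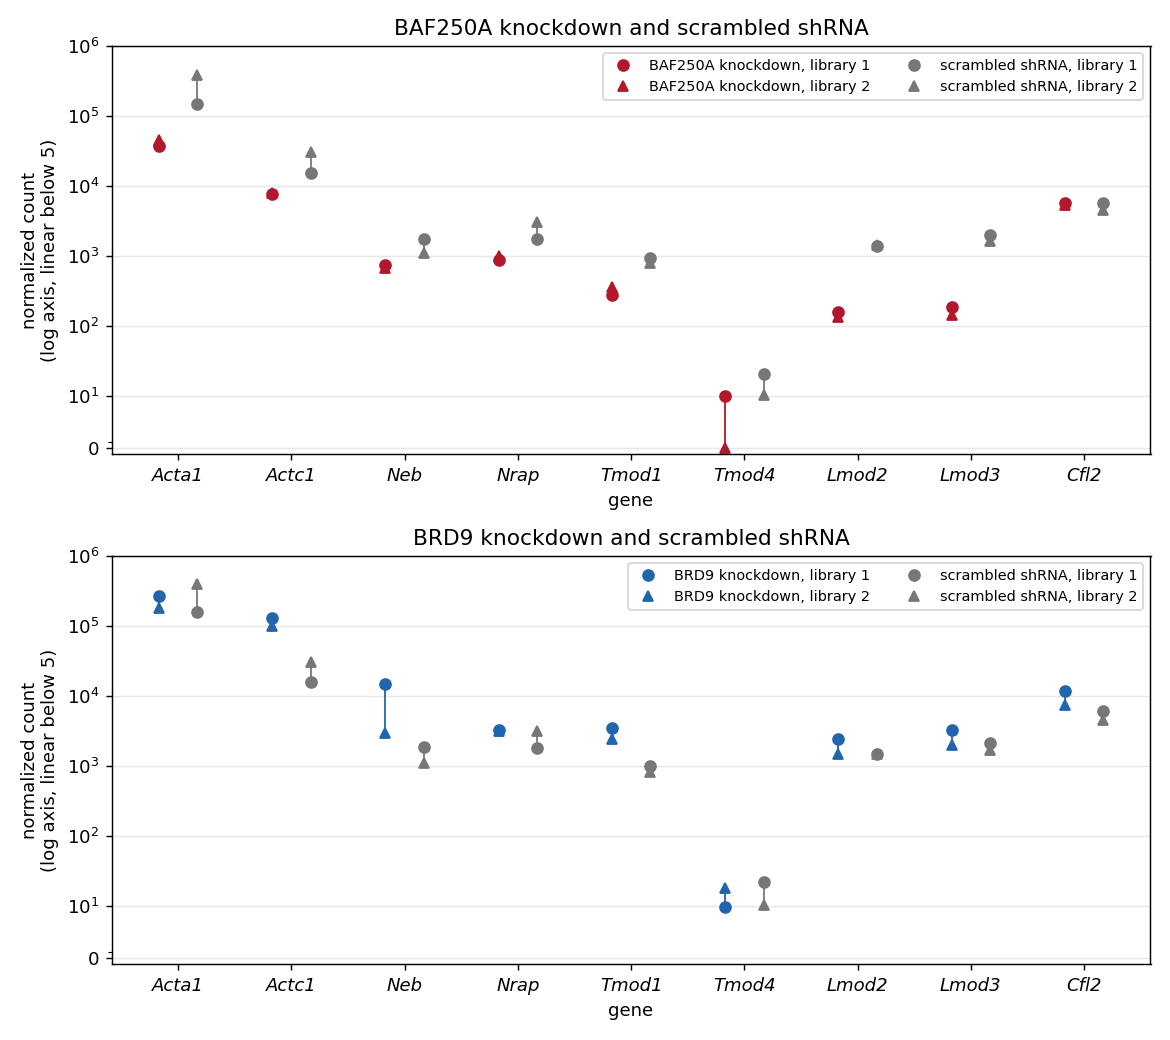
Normalized counts (log axis, linear below 5) of the 9 genes in each library, with knockdown libraries left of scrambled libraries; circles are library 1 and triangles library 2 of each group. Lmod2 and Lmod3 lie between 134.5 and 185 in BAF250A knockdown and between 1378 and 1991 in scrambled shRNA, and Actc1 lies above 100000 in both BRD9 knockdown libraries.

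The sarcomeric actins were the most abundant of the 9 transcripts. Acta1, the skeletal alpha-actin gene (mm10 chromosome 8, 123891758 to 123894775, minus strand), had 36558 and 44996 normalized counts in BAF250A knockdown, against 149879 and 385247 in scrambled shRNA. Both knockdown libraries lay far below both scrambled libraries, and the log2 fold change was −2.64 (SE 0.51, adjusted p = 2.53e-06) in the authors' deposited table. It was still called without scrambled library 2, at −1.80, and was −3.11 without scrambled library 1. In BRD9 knockdown Acta1 had 268802 and 180497 normalized counts, which lay between the scrambled values of 159826 and 394477. The log2 fold change there was −0.29 (SE 0.55, adjusted p = 0.809) in the authors' deposited table, and it was 0.46 when scrambled library 2 was left out.

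Actc1, the cardiac alpha-actin gene that is also transcribed in young myotubes (chromosome 2, 114047282 to 114052875, minus strand), moved in opposite directions. It had 7532 and 7917 normalized counts in BAF250A knockdown, against 15044 and 30364 in scrambled shRNA, and its log2 fold change was −1.52 (SE 0.47, adjusted p = 0.00682) in the authors' deposited table. The groups did not overlap, but without scrambled library 2 the log2 fold change was −0.93 and the call was lost. In BRD9 knockdown it had 130517 and 100180 normalized counts, against 16042 and 31091 in scrambled shRNA. Both BRD9 knockdown libraries were more than 3 times the higher scrambled library, the log2 fold change was 2.20 (SE 0.52, adjusted p = 0.000327) in the authors' deposited table, and it lay between 1.78 and 2.68 when any single library was left out. Words of 31 bases shared with transcripts of other genes made up 4.11% of Acta1, mostly with Actb, and 0.756% of Actc1.

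Within a library, Acta1 exceeded Actc1 by less in both knockdowns than in scrambled shRNA. Per kilobase of exon, Acta1 was 5.11 and 5.99 times Actc1 in the BAF250A knockdown libraries and 2.17 and 1.90 times Actc1 in the BRD9 knockdown libraries, against 10.5 and 13.4 times in the scrambled libraries. The ratio was lower in every knockdown library than in either scrambled library. It does not depend on the size factors, and with 2 libraries per group an exact two-sided permutation test cannot go below 0.333, so none was run.

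Promoters of the actins are shown because both carry a CArG box, the binding element of serum response factor (SRF), a classical regulator of muscle actin genes, and because these genes fell together in 1 knockdown and parted in the other. The windows come from RefSeq (GRCm38.p6), run from 250 bases before to 50 bases after the annotated start, and are read along the gene; capitals mark the CArG box. The Acta1 window is chr8:123894726-123895025 and the Actc1 window is chr2:114052826-114053125, both on the minus strand.
Acta1: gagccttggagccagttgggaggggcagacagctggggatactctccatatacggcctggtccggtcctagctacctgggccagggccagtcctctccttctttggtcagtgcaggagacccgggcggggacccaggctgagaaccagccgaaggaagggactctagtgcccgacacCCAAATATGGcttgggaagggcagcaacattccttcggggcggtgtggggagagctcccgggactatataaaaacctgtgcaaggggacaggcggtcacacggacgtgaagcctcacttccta
Actc1: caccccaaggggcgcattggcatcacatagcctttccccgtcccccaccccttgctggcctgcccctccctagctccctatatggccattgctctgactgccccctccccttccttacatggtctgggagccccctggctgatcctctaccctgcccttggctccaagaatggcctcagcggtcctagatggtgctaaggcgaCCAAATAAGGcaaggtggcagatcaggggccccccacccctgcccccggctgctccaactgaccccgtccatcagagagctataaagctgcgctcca
Counted from the annotated start, the CArG box lies at −73 to −64 in Acta1 and at −47 to −38 in Actc1. A CArG box on either strand was found in 1.63% of 32851 promoter windows of this length. An M-CAT element, CATTCC, which TEAD factors bind, was found in Acta1 (−46 to −41) and in Tmod1 (−163 to −158), and 14.7% of all windows hold one. Of the 7 genes with a window (Neb and Lmod3 have none in the table), 2 held a CArG box, 0 a MEF2 site and 6 an E-box, CANNTG, the element of myogenic bHLH factors; MEF2 sites and E-boxes occur in 3.19% and 72.3% of all windows. These letter matches overlap no other searched motif in the actin windows and are a description, not binding sites. Transcripts of SRF itself are given with its cofactors further on.

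Of nebulin and its relative Nrap, Nrap was called with BAF250A knockdown and Neb with BRD9 knockdown. Neb, which encodes the giant protein that runs along the thin filament (chromosome 2, 52136640 to 52338798, minus strand), had 740 and 679 normalized counts in BAF250A knockdown, against 1748 and 1092 in scrambled shRNA. The groups did not overlap, but the log2 fold change of −0.98 (SE 0.46, adjusted p = 0.0936) missed the threshold in the authors' deposited table. It was −0.60 without scrambled library 1 and −1.26 without scrambled library 2, and not called in either case. In BRD9 knockdown Neb had 14973 and 2984 normalized counts, against 1864 and 1119 in scrambled shRNA. The 2 BRD9 knockdown libraries differed 5.02-fold from each other, the widest spread among the 8 genes other than Tmod4 in either knockdown. The log2 fold change was 2.43 (SE 0.65, adjusted p = 0.00214) in the authors' deposited table. Without BRD9 knockdown library 1 it was 0.91 and not called, and without scrambled library 2 it was 2.06 and not called.

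Nrap, a scaffold of early myofibrils and of the filament anchors at the muscle cell end (chromosome 19, 56320037 to 56390062, minus strand), had 882 and 987 normalized counts in BAF250A knockdown, against 1708 and 3084 in scrambled shRNA. It fell by a log2 fold change of −1.33 (SE 0.47, adjusted p = 0.0194 in the authors' deposited table), without overlap between the groups. The call was lost without scrambled library 2 (−0.84) and without BAF250A knockdown library 1 (−1.23). In BRD9 knockdown Nrap had 3315 and 3165 normalized counts, against 1822 and 3158 in scrambled shRNA, so the groups all but touched. The log2 fold change was 0.37 (SE 0.50, adjusted p = 0.726) in the authors' deposited table.

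At the pointed end, the capping protein gene Tmod1 moved in opposite directions in the knockdowns. Tmod1, tropomodulin 1 (chromosome 4, 46038940 to 46116032, plus strand), had 271 and 356 normalized counts in BAF250A knockdown, against 933 and 793.5 in scrambled shRNA, and its log2 fold change was −1.43 (SE 0.45, adjusted p = 0.00824) in the authors' deposited table. In BRD9 knockdown it had 3508.5 and 2439 normalized counts, against 995 and 812.5 in scrambled shRNA, and its log2 fold change was 1.66 (SE 0.49, adjusted p = 0.00788) in the authors' deposited table. Neither pair of groups overlapped. Leaving out 1 library ended the BAF250A call when it was scrambled library 1 (−1.30) or BAF250A knockdown library 1 (−1.24). It ended the BRD9 call when it was scrambled library 2 (1.5) or BRD9 knockdown library 1 (1.36). Words of 31 bases shared with transcripts of other genes made up 3.35% of Tmod1.

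Tmod4, the skeletal muscle tropomodulin (chromosome 3, 95122799 to 95129209, plus strand), was barely detected. It had 8 and 0 reads in BAF250A knockdown against 32 and 11 in scrambled shRNA, and 8 and 14 reads in BRD9 knockdown against the same scrambled reads. Its log2 fold changes of −1.30 (SE 1.2, adjusted p = 0.452) and −0.19 (SE 0.97, adjusted p = 0.935) in the authors' deposited tables carry the widest errors of the 9 genes, and a difference was not detectable at this depth. The BAF250A value ranged from −3.32 without BAF250A knockdown library 1 to −0.45 without BAF250A knockdown library 2.

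The leiomodins showed the largest changes with BAF250A knockdown. Lmod2 (chromosome 6, 24597771 to 24605414, plus strand) had 156 and 134.5 normalized counts in BAF250A knockdown, against 1378 and 1446 in scrambled shRNA, a log2 fold change of −3.21 (SE 0.44, adjusted p = 1.38e-11) in the authors' deposited table. Lmod3 (chromosome 6, 97238530 to 97253217, minus strand) had 185 and 142 normalized counts in BAF250A knockdown, against 1991 and 1640 in scrambled shRNA, a log2 fold change of −3.40 (SE 0.45, adjusted p = 1.23e-12) in the authors' deposited table. The proteins of both genes start and lengthen thin filaments at the pointed end. Both knockdown libraries lay far below both scrambled libraries, and with any single library left out the log2 fold change stayed between −3.28 and −3.07 for Lmod2 and between −3.55 and −3.19 for Lmod3. The scrambled libraries, which differ for the actins, lay close together for these genes.

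In BRD9 knockdown neither leiomodin was called. Lmod2 had 2442 and 1484 normalized counts in BRD9 knockdown, against 1470 and 1481 in scrambled shRNA (log2 fold change 0.40, SE 0.50, adjusted p = 0.696 in the authors' deposited table). Lmod3 had 3321 and 1995.5 normalized counts in BRD9 knockdown, against 2123 and 1679 in scrambled shRNA (log2 fold change 0.47, SE 0.51, adjusted p = 0.638 in the authors' deposited table). In both cases BRD9 knockdown library 1 was the highest of the 4 libraries and library 2 lay near the scrambled values.

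The level of the cap relative to the leiomodins also differed between the groups. Per kilobase of exon, Tmod1 was 0.869 and 1.32 times Lmod2 in BAF250A knockdown and 0.719 and 0.823 times Lmod2 in BRD9 knockdown, against 0.339 and 0.275 times in scrambled shRNA. The ratio was thus higher in all 4 knockdown libraries, in BAF250A knockdown with Tmod1 lower and the leiomodins lower still, and in BRD9 knockdown with Tmod1 higher. Lmod3 stayed between 0.944 and 1.29 times Lmod2 in all 6 libraries.

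Cfl2, the muscle cofilin gene (chromosome 12, 54858815 to 54862877, minus strand), was the member whose libraries overlapped between BAF250A knockdown and scrambled shRNA. It had 5600 and 5352 normalized counts in BAF250A knockdown, against 5714 and 4486 in scrambled shRNA, with overlapping groups and a log2 fold change of 0.10 (SE 0.42, adjusted p = 0.890) in the authors' deposited table. In BRD9 knockdown it had 11718 and 7346.5 normalized counts, against 6093 and 4593 in scrambled shRNA. The groups did not overlap, but the log2 fold change of 0.80 (SE 0.50, adjusted p = 0.334) missed the threshold in the authors' deposited table.

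Per kilobase of exon, the order of mean levels in BAF250A knockdown was Acta1, Actc1, Cfl2, Nrap, Tmod1, Lmod3, Lmod2, Neb and Tmod4. In scrambled shRNA it was Acta1, Actc1, Cfl2, Lmod3, Lmod2, Nrap, Tmod1, Neb and Tmod4, with Acta1 at 97578 and 250812, Cfl2 at 1749 and 1373, and Neb at 65.8 and 41.1 normalized counts per kilobase. Levels of Tmod1, Lmod3 and Lmod2 overlapped in BAF250A knockdown, where these 3 genes lay between 64.2 and 90.2. In scrambled shRNA, Lmod3 at 899 and 740 lay above Lmod2 at 697.5 and 732, narrowly in library 2. In BRD9 knockdown Actc1 reached 80666 and 61916 normalized counts per kilobase, against 9915 and 19216 in scrambled shRNA, and remained second to Acta1 at 175002 and 117511. BRD9 knockdown placed Tmod1 above Nrap, at 889 and 618 against 602 and 575 normalized counts per kilobase for Nrap.

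**Figure D2:**
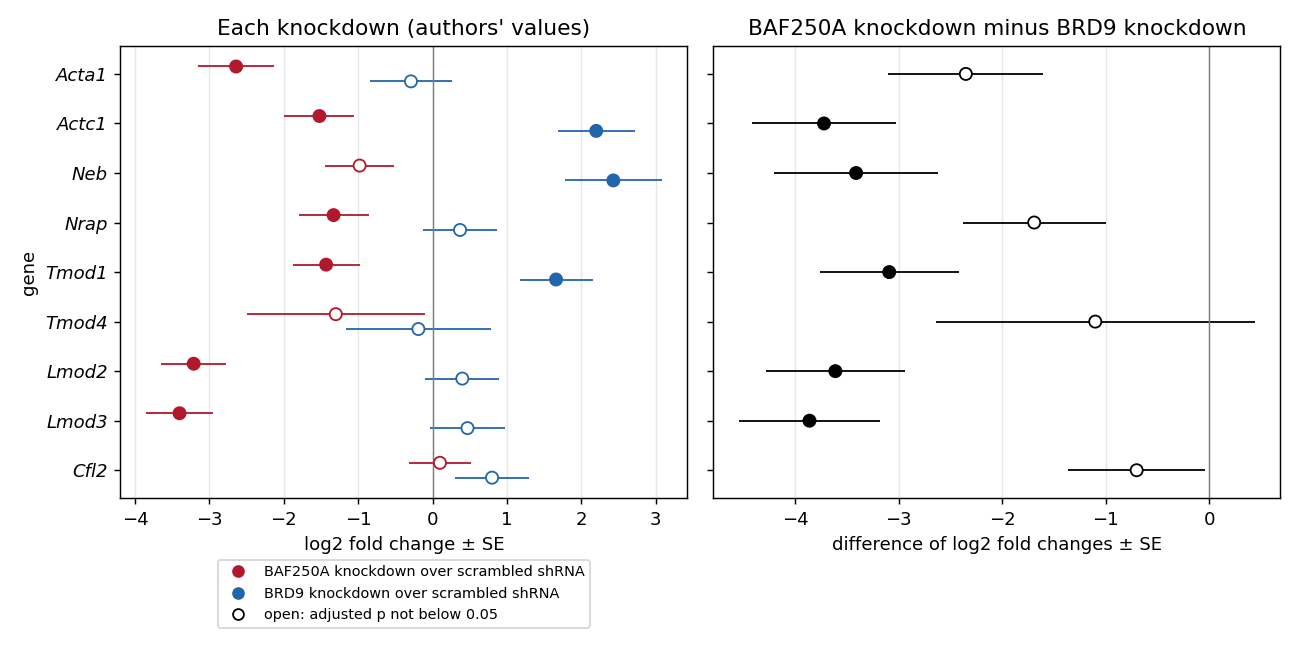
Left, the authors' log2 fold changes of the 9 genes in BAF250A knockdown (red) and BRD9 knockdown (blue) over scrambled shRNA; right, the difference of these values, BAF250A knockdown minus BRD9 knockdown. Bars are SE and filled points have an adjusted p below 0.05; all 9 differences lie below 0, and 5 of them are filled.

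To compare the knockdowns with each other, the BRD9 log2 fold change was subtracted from the BAF250A one and divided by the combined SE, and the two-sided normal p was adjusted by Benjamini-Hochberg over the 16311 genes tested in both tables. It was called for 5 of the 9 genes, all lower in BAF250A knockdown than in BRD9 knockdown, where 1.99% of all genes tested are called lower. Lmod3 differed by −3.86 (SE 0.68, adjusted p = 3.73e-06), Actc1 by −3.72 (SE 0.70, adjusted p = 2.50e-05), Lmod2 by −3.61 (SE 0.67, adjusted p = 1.85e-05), Neb by −3.41 (SE 0.79, adjusted p = 0.00152) and Tmod1 by −3.09 (SE 0.67, adjusted p = 0.000497), on the log2 scale. For Lmod2 and Lmod3 the fall with BAF250A knockdown made up most of the difference, whereas for Actc1, Neb and Tmod1 values of opposite sign added up. The Neb difference leans on BRD9 knockdown library 1, without which the BRD9 log2 fold change of Neb was 0.91. The differences were not recomputed with a library left out. Acta1 differed by −2.35 (SE 0.75, adjusted p = 0.0626) and Nrap by −1.69 (SE 0.69, adjusted p = 0.275), below the threshold. Because the scrambled libraries are shared, this SE is too large. With the share of the variance that scrambled libraries would hold at equal spread removed, Acta1 (adjusted p = 0.000341) and Nrap (adjusted p = 0.00983) were called as well, beside 4.95% of all genes. Tmod4 and Cfl2 were called by neither version.

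Sarcomeric actin genes have cytoplasmic and smooth muscle counterparts, and none of these fell with BAF250A knockdown. Of Actb, Actg1, Acta2 and Actg2, 3 rose with BAF250A knockdown and 1 rose with BRD9 knockdown, and 0 fell in either comparison, also at an unadjusted p below 0.05. Actg2, the enteric smooth muscle actin, had 33785 and 42442 normalized counts in BAF250A knockdown, against 2329 and 2371 in scrambled shRNA (log2 fold change 3.94, SE 0.42, adjusted p = 5.01e-19 in the authors' deposited table). In BRD9 knockdown it had 3506 and 13906 normalized counts, against 2484 and 2428 in scrambled shRNA (log2 fold change 1.73, SE 0.60, adjusted p = 0.0328 in the authors' deposited table), with library 2 far above the other 3 libraries. Cytoplasmic Actg1 had 89540 and 143883 normalized counts in BAF250A knockdown, against 35015 and 45499 in scrambled shRNA (log2 fold change 1.5, SE 0.45, adjusted p = 0.00485 in the authors' deposited table). Per kilobase of exon, Actg2 reached 0.912 and 0.9305 times the level of Acta1 in BAF250A knockdown, against 0.0153 and 0.00607 times in scrambled shRNA.

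Other markers of smooth muscle were high in the same libraries. Des was planned for this list too, but was counted with the skeletal muscle markers only. It went the other way and was not called, at a log2 fold change of −0.79 (SE 0.49) with BAF250A knockdown and −0.25 (SE 0.52) with BRD9 knockdown. Of the 3 other smooth muscle markers, 2 (Cnn1 and Tagln) rose with BAF250A knockdown, and Myh11 was not called. Their normalized counts, Myh11 included, summed to 37108 and 42123 in BAF250A knockdown, against 3179 and 3557 in scrambled shRNA, and to 4405 and 16075 in BRD9 knockdown, against 3390 and 3642 in scrambled shRNA; 0 of the 3 were called with BRD9 knockdown. BRD9 knockdown library 2 was the high library for the sum of these markers and for Actg2. Myh11, at a mean of 6.57 normalized counts in that comparison, adds little to the sum. For Lmod1, the smooth muscle leiomodin described next, BRD9 knockdown library 1 was the higher one. The part of these markers in the result was not tested.

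Of 7 relatives of the 9 genes, 4 rose with BAF250A knockdown, Lmod1, Tmod2, Tmod3 and Dstn, and 1 fell, Nebl. The list was drawn up as broadly expressed relatives, but it also holds the smooth muscle gene Lmod1. Lasp1 and Cfl1 were not called, at log2 fold changes of −0.80 and −0.38. Nebl had 2 and 0 reads in BAF250A knockdown against 60 and 17 in scrambled shRNA, so its call rests on few reads. Tmod2 was also low, at a mean of 45.6 normalized counts in that comparison. Lmod1, the smooth muscle leiomodin, had 3532 and 3669 normalized counts in BAF250A knockdown, against 218 and 445 in scrambled shRNA (log2 fold change 3.36, SE 0.48, adjusted p = 6.08e-11 in the authors' deposited table). It was also the relative that rose with BRD9 knockdown, at 2154 and 1271 normalized counts against 233 and 456 in scrambled shRNA (log2 fold change 2.21, SE 0.55, adjusted p = 0.000729 in the authors' deposited table). Per kilobase of exon, Lmod1 stood at 11.3 and 13.65 times Lmod2 in BAF250A knockdown and at 0.4415 and 0.4285 times Lmod2 in BRD9 knockdown, against 0.0793 and 0.154 times in scrambled shRNA. In BAF250A knockdown the smooth muscle leiomodin was therefore the most abundant of the 3, and in the other groups the least abundant.

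Among the other relatives, Tmod3 and Dstn rose with BAF250A knockdown. Tmod3, the widely expressed tropomodulin, had 2241 and 2432 normalized counts in BAF250A knockdown, against 1087.5 and 426 in scrambled shRNA (log2 fold change 1.58, SE 0.51, adjusted p = 0.00984 in the authors' deposited table). It stood at 2.93 and 2.42 times Tmod1 per kilobase in BAF250A knockdown, against 0.412 and 0.190 times in scrambled shRNA. Dstn, destrin, a relative of cofilin that depolymerises actin, had 21613 and 20010 normalized counts in BAF250A knockdown, against 5472 and 4594 in scrambled shRNA (log2 fold change 2.01, SE 0.42, adjusted p = 1.86e-05 in the authors' deposited table). Its level per kilobase was 6.60 and 6.39 times that of Cfl2 in BAF250A knockdown, against 1.64 and 1.75 times in scrambled shRNA.

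**Figure D3:**
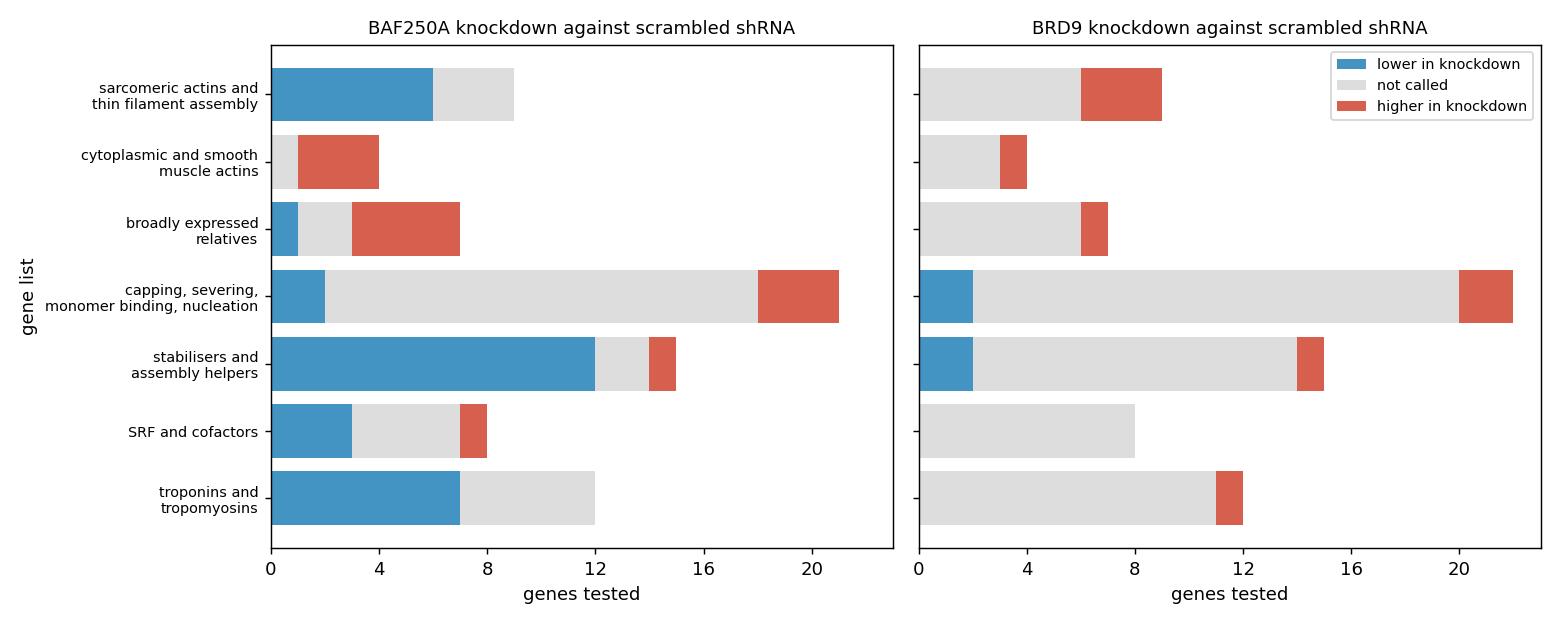
Number of tested genes of each list that were called lower (blue), not called (grey) or called higher (red) in BAF250A knockdown (left) and BRD9 knockdown (right) against scrambled shRNA at an adjusted p below 0.05. With BAF250A knockdown the stabilisers and assembly helpers have 12 of 15 genes lower, while the cytoplasmic and smooth muscle actins have 3 of 4 higher.

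Proteins that stabilise nebulin and leiomodin or help myofibrils assemble formed the list that fell most often with BAF250A knockdown: 12 of 15 tested genes fell and 1, Pdlim5, rose, with a median log2 fold change of −2.31 in the authors' deposited table. Klhl40, which protects nebulin and leiomodin 3 from degradation, had 434 and 533 normalized counts in BAF250A knockdown, against 1345 and 3512 in scrambled shRNA (log2 fold change −2.26, SE 0.52, adjusted p = 0.000122 in the authors' deposited table). Klhl41, a nebulin partner, had 1408 and 1446 normalized counts in BAF250A knockdown, against 5729.5 and 7522 in scrambled shRNA (log2 fold change −2.17, SE 0.43, adjusted p = 4.83e-06 in the authors' deposited table). Unc45b, a myosin chaperone, had 121 and 144 normalized counts in BAF250A knockdown, against 2021 and 4708 in scrambled shRNA (log2 fold change −4.54, SE 0.51, adjusted p = 2.10e-17 in the authors' deposited table). Both BAF250A knockdown libraries lay below both scrambled libraries for 13 of the 14 genes of the list with values per library. The share of all genes with such a separation is not known, since reads per library were recovered only for chosen genes.

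With BRD9 knockdown, 1 of the 15 assembly genes rose and 2 fell, with a median log2 fold change of 0.39 in the authors' deposited table. The gene that rose was Actn2, the sarcomeric alpha-actinin that anchors thin filaments in the Z-disc, at 6137 and 1502 normalized counts in BRD9 knockdown against 411 and 769 in scrambled shRNA (log2 fold change 2.53, SE 0.63, adjusted p = 0.000825 in the authors' deposited table). In BAF250A knockdown the same gene had 27.5 and 23.3 normalized counts, against 385 and 751 in scrambled shRNA (log2 fold change −4.33, SE 0.55, adjusted p = 1.31e-13 in the authors' deposited table). Its difference between the knockdowns was −6.87 (SE 0.84, adjusted p = 1.05e-12). The BRD9 knockdown libraries of Actn2 differed 4.09-fold from each other, and no refit with a library left out was run for this gene. Xirp2 and Myoz1 fell in both knockdowns, and for Klhl40, Klhl41, Smyd1 and Unc45b the BRD9 values were 0.39 to 1.23 and not called in the authors' deposited table.

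**Figure D4:**
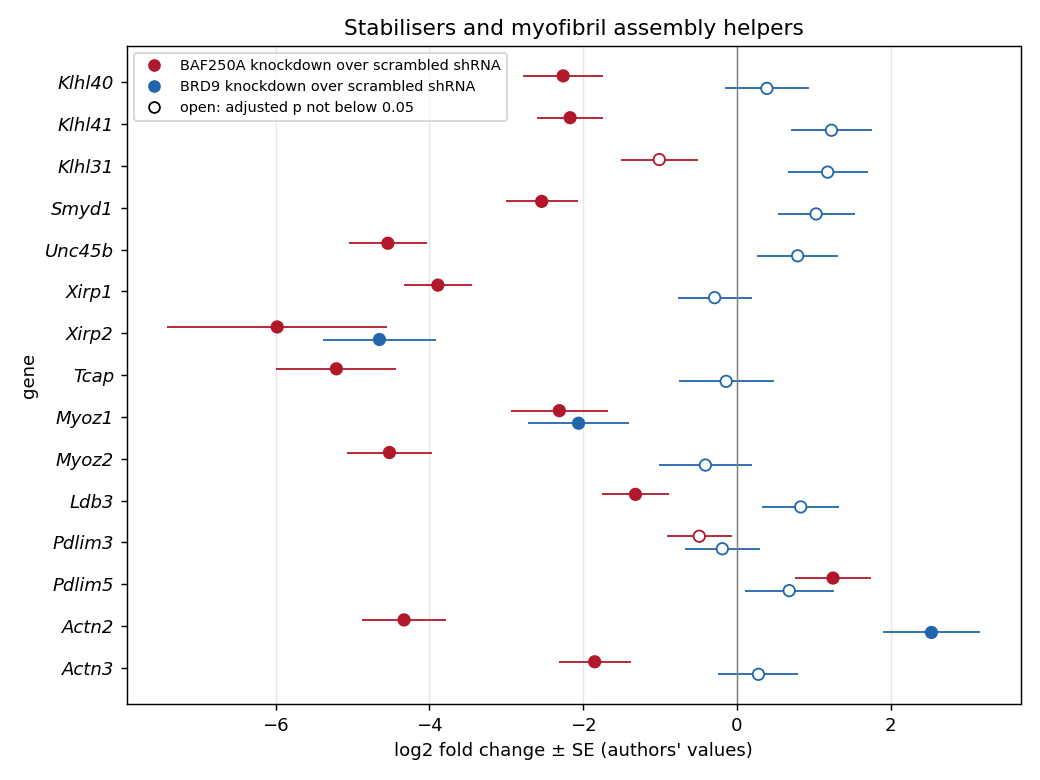
The authors' log2 fold changes with SE bars for 15 genes that stabilise nebulin and leiomodin or help myofibrils assemble, in BAF250A knockdown (red) and BRD9 knockdown (blue) over scrambled shRNA. Filled points have an adjusted p below 0.05; with BAF250A knockdown 12 filled points lie below 0, and with BRD9 knockdown Actn2 is the filled point above 0.

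Among 22 genes for capping, severing, monomer binding and nucleation of actin, 3 rose and 2 fell of 21 tested with BAF250A knockdown. With BRD9 knockdown 2 rose and 2 fell of 22 tested. Over all genes tested, 11.2% were called higher and 17.5% lower with BAF250A knockdown, and 5.11% and 9.33% with BRD9 knockdown. Counts this small do not set the list apart from all genes. Cap2, the muscle cyclase-associated protein that recycles actin monomers, had the largest change of the list. It had 4982 and 2009.5 normalized counts in BRD9 knockdown, against 37.9 and 50.55 in scrambled shRNA (log2 fold change 6.01, SE 0.57, adjusted p = 4.91e-24 in the authors' deposited table). In BAF250A knockdown Cap2 had 177 and 109 normalized counts, against 35.55 and 49.4 in scrambled shRNA (log2 fold change 1.69, SE 0.59, adjusted p = 0.0174 in the authors' deposited table). Its relative Cap1, which is expressed in most cells, had 18221 and 18253 normalized counts in BRD9 knockdown, against 18819 and 19314 in scrambled shRNA (log2 fold change −0.06, SE 0.47, adjusted p = 0.960 in the authors' deposited table). Csrp3, a muscle LIM protein, fell with BAF250A knockdown to 115 and 125.5 normalized counts, against 333 and 1216 in scrambled shRNA (log2 fold change −2.59, SE 0.58, adjusted p = 9.26e-05 in the authors' deposited table). The barbed-end cap subunit Capza2 rose in both knockdowns.

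Transcripts of SRF and its cofactors showed 1 gene higher and 3 lower of 8 with BAF250A knockdown. With BRD9 knockdown 0 rose and 0 fell in the authors' deposited DESeq2 table, also at an unadjusted p below 0.05. Srf itself had 3873 and 4169 normalized counts in BAF250A knockdown, against 4512 and 7121 in scrambled shRNA (log2 fold change −0.52, SE 0.44, adjusted p = 0.408 in the authors' deposited table). Among the genes that fell with BAF250A knockdown were Abra, which links actin to SRF cofactors in striated muscle, and Ablim3, which encodes an actin-binding LIM protein. Abra had 14.98 and 2.59 normalized counts in BAF250A knockdown, against 415 and 760.5 in scrambled shRNA (log2 fold change −5.76, SE 0.65, adjusted p = 4.52e-17 in the authors' deposited table).

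Of the troponins and tropomyosins, which sit on the thin filament and switch it on, 7 of 12 fell and 0 rose with BAF250A knockdown in the authors' deposited DESeq2 table (8 lower and 1 higher at an unadjusted p below 0.05). With BRD9 knockdown 1 of the 12, Tnni3, rose and 0 fell (2 higher and 1 lower at an unadjusted p below 0.05). Tnnc2, fast troponin C, had 1333 and 1167 normalized counts in BAF250A knockdown, against 10300 and 30237.5 in scrambled shRNA (log2 fold change −3.90, SE 0.53, adjusted p = 3.59e-12 in the authors' deposited table). Over all 6 companion lists, 12 of 67 tested genes rose and 25 fell with BAF250A knockdown, and 6 of 68 rose and 4 fell with BRD9 knockdown. The counts of each list stand beside shares over all genes tested of 11.2% higher and 17.5% lower with BAF250A knockdown. With BRD9 knockdown these shares were 5.11% higher and 9.33% lower.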

How the data were processed

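RNA-seq of 3 groups of 2 C2C12 libraries was analysed. Per the submitters' processing notes, HISAT, StringTie, Bowtie, RSEM, DESeq2 and mm10 were used, without versions, and the treatment protocol also names BAF180, not analysed here. The authors deposited 1 comparison table per knockdown. Per the file headers, these hold a mean normalized count (a signal averaged over 4 libraries), a log2 fold change with its SE on the log2 scale, a Wald score, a p-value and an adjusted p-value. Applying Benjamini-Hochberg to the genes with an adjusted p-value gave the deposited values back. A call is an adjusted p below 0.05.

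Each library adds a whole number of equal steps to a deposited mean, 1 step per read: all 4052 and 3923 genes with a mean below 2 resolved into whole reads. The deposited fold change and SE were matched by a negative binomial fit with a normal prior (SD 2.17 and 1.89 log2 units), so the authors' fold changes are moderated towards 0. For 89 of 107 genes, exactly 1 set of whole reads matched mean, fold change and SE in both tables, with the same scrambled reads. The largest deviation in the fold change was 1.3e-09. Among the rest, 3 genes outside the members with a mean above 100000 and 2 genes without a fold change in a table were not searched. For Acta1, 2991 sets matched the BAF250A table alone, and 1 of them also matched the BRD9 table. The search and the difference test were tested on simulated data. The genes simulated for the search had lower scrambled means than Acta1 and Actc1, so the search was not tested at their level. The values simulated for the difference test gave scrambled libraries the equal spread that removing their share assumes, so that assumption was not tested. Values per library have n = 2, and total depth is not known beyond the size factors.

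Members, companion lists and markers were chosen by symbol and role, but with earlier results of these data known. All 9 members, the targeted genes and any companion gene could be named. Not every companion gene is reported here by name. Nothing in the labels says how cultures were separated, so the spread between these libraries, on which p-values rest, may be technical. They do not rest on each gene's own libraries alone. The matched dispersion, the modelled squared relative spread, was 0.0945 for Lmod2 with BAF250A knockdown and 0.2285 for Neb with BRD9 knockdown. The Neb value is small for BRD9 knockdown libraries of 14973 and 2984 normalized counts, so its p-value may understate their spread. Python 3.11.15, NumPy 2.4.6, SciPy 1.17.1 and numba 0.67.0 were used. Exon lengths are GENCODE M21 unions, and gene positions and promoters are from RefSeq GRCm38.p6.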

Additional observations from a re-analysis of the deposited data

How the results depend on the processing

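Against the 6 members lower with BAF250A knockdown, a Bonferroni threshold left 3, a test against a log2 fold change of 1 left 3 (Acta1, Lmod2 and Lmod3 in both), and a null centred and scaled to the spread of all Wald scores left 2 (Lmod2 and Lmod3). For BRD9 knockdown, where 3 members were higher, each of these settings left 0, with 3 at an unadjusted p below 0.05 in the authors' DESeq2 table. Leaving out 1 library in turn gave 4 to 6 members for BAF250A knockdown and 1 to 3 for BRD9 knockdown, with 1 (Actc1) both without scrambled library 2 and without BRD9 knockdown library 1. These refits used the recovered reads at the dispersion of all 4 libraries, so a lone library is assumed to vary like the rest, and a gene counted when its Wald p was at or below the largest called p (0.0144 and 0.00722). Counts of the companion genes higher and lower with BAF250A knockdown were 3 and 14 under Bonferroni, 2 and 14 against a log2 fold change of 1, and 2 and 7 under the rescaled null, against 12 and 25. With BRD9 knockdown they were 1 and 1 under each of these settings, against 6 and 4, and 2 were lower among genes with a mean of 100 or more. The cause of these changes, apart from the stricter threshold each sets or the fewer genes or libraries each keeps, was not tested.

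With 1 library left out, signs turned for values that were not called: Cfl2 with BAF250A knockdown ranged from −0.06 (without scrambled library 2) to 0.28, Acta1 with BRD9 knockdown from −0.76 to 0.46 (without scrambled library 2), and Tmod4 with BRD9 knockdown from −0.58 to 0.32 (without scrambled library 1), with 0.12 without BRD9 knockdown library 1. An unmoderated fit, chosen after seeing the data, called the same numbers, 6 and 3. The members that differed between the knockdowns numbered 5, and 7 with the shared scrambled variance removed. Scrambled Lmod2 averaged 1475 normalized counts on the scale of the BRD9 table, against 1412 on that of the BAF250A table. No paired analysis was possible because the A or B letter of each recovered library is not known. Depth limits Tmod4, with at most 32 reads in a library.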

Other observations

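Outside the lists, the 5 genes with the pattern most like the members were Ccdc141, Ccdc134, Ntn1, Ltbp4 and Nav2. Likeness was the distance, over the 2 deposited log2 fold changes, to the members' median of −1.43 with BAF250A knockdown and 0.47 with BRD9 knockdown, among the 6402 genes whose mean reached 1000 normalized counts in both tables. Ccdc141 lay at a distance of 0.068, with −1.38 and 0.52 in the authors' deposited tables, and Nav2, the farthest of the 5, lay at 0.148, with −1.28 and 0.46. Such distances are small beside the SE of a single gene, so the order of these genes carries no weight.

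Some markers of other cell types were near 0. Adipoq was listed at 0 in both of the authors' deposited tables, and Ptprc, Adgre1 and Plin1 had a mean normalized count below 1 in both. The fibroblast marker Pdgfra had 1907 and 1648 normalized counts in BAF250A knockdown, against 340 and 186 in scrambled shRNA (log2 fold change 2.69, SE 0.47, called higher in the authors' deposited table), while Dcn, with 1872 and 1700 against 2506 and 1036, was not called. Myh6 and Nkx2-5 from the cardiomyocyte list, Cd68 from the macrophage list and Kdr from the endothelial list were called lower in both knockdowns, and Tnni3 from the cardiomyocyte list was called higher with BRD9 knockdown. The part of such cells in the results was not tested.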
